A study of Mus musculus with 18 samples.

Results

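Transcripts of the mTOR and TSC complex genes were followed in mouse ovary. The 9 genes were chosen by symbol, and all 9 were among the 30172 genes listed in each of the 18 libraries. They are Mtor, which encodes the kinase, Rptor and Rictor for the scaffolds of its complexes, Tsc1 and Tsc2 for its upstream inhibitor, Rheb for the small GTPase that activates it, and Rps6kb1, Eif4ebp1 and Eif4ebp2 for direct targets.

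The mTOR kinase works in a pair of complexes. mTORC1, built on raptor, promotes protein synthesis and growth when amino acids and growth factors are present, and mTORC2, built on rictor, phosphorylates AKT and SGK kinases. The hamartin-tuberin complex, encoded by Tsc1 and Tsc2, switches off the GTPase Rheb, and AKT relieves this brake. In the ovary, the activity of this pathway in oocytes and pregranulosa cells is known to help wake primordial follicles, and loss of Tsc1 or Tsc2 in oocytes is known to activate the whole pool early. Much of this control acts on phosphorylation, which RNA levels do not show.

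Whole ovaries came from wild type C57BL/6J females of the F1 generation aged 3, 7 or 21 days after birth (Pd3, Pd7 and Pd21). F1-HHcy females were daughters of dams fed chow with 3% methionine from 4 weeks before mating until the end of lactation to raise homocysteine, per the labels (the study's methods describe a longer time before mating), and F1-Control females were daughters of dams on normal chow. The sires ate normal chow, the pups were not treated themselves, and each of the 6 groups had 3 libraries. Whether a library held 1 pup or several, and whether its pups came from separate litters, is not given in the sources used here, so p-values measure only the spread between these libraries. By the labels, batch 1 held Pd3 with Pd7 and batch 2 held Pd21, so the diets were always compared inside a batch, whereas age and batch cannot be told apart for Pd21.

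The libraries held 33630641 to 39399281 fragments on genes, of which each member took between 517 and 5027. Levels are FPKM (fragments divided by the length of the gene and by the depth of the library), means are given with the SD over the 3 libraries of a group, and differences are log2 fold changes of F1-HHcy relative to F1-Control, on the log2(FPKM + 1) scale, with their standard error (SE) from limma. A gene is said to have risen or fallen only where its Benjamini-Hochberg adjusted p was under 0.05. Markers of germ cells, growing oocytes and granulosa cells, which define an ovary, were present in every group, and none of the markers listed for any cell type was at 0 throughout a group.

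Promoter sequence is shown for 3 members. Rictor and Tsc1 were chosen because they correlated across libraries (r = 0.81 on values centred on the day). That value includes the diet differences and the gene length difference described below, and shared regulation was not tested. Eif4ebp2 differed between the diets at Pd7 before adjustment. The bases before the start of the gene in both RefSeq and GENCODE M21 are given 5′ to 3′ on the strand of the gene, from RefSeq on GRCm38.p6. Capitals mark a GC box (GGGCGG, on either strand) or a CCAAT box (CCAAT, on either strand), and in Rictor one of each overlaps.
Rictor: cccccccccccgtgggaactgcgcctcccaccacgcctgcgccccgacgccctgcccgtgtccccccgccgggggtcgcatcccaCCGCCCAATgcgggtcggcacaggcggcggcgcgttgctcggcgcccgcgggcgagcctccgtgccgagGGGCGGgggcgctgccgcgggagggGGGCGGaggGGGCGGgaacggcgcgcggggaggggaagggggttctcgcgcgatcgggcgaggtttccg
Tsc1: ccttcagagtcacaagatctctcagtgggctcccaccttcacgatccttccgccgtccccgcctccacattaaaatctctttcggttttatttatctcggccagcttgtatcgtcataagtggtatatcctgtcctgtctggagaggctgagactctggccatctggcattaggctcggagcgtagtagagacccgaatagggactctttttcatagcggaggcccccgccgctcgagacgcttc
Eif4ebp2: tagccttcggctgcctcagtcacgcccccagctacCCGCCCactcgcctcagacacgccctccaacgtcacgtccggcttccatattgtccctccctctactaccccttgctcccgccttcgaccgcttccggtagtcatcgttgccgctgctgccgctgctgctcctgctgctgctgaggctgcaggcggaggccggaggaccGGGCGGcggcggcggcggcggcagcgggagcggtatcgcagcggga
These stretches lie at chr15:6708131-6708378 (plus strand, 248 bases) for Rictor, chr2:28640983-28641227 (plus strand, 245 bases) for Tsc1 and chr10:61452670-61452919 (minus strand, 250 bases) for Eif4ebp2. G and C made up 81.5% of the bases before Rictor, 53.9% before Tsc1 and 70.0% before Eif4ebp2. The Tsc1 stretch held none of these motifs.

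Windows of 250 bases before to 50 bases after the start were found for 8 of the 9 members, Eif4ebp1 being the other. A GC box was in 4 of these 8 windows (Mtor, Rictor, Rheb and Eif4ebp2) and in 35.7% of all 32851 RefSeq windows of this length. A CCAAT box was in 2 (Mtor and Rictor) and in 37.4% of all windows. Rheb alone held the palindromic E-box CACGTG, which 7.15% of all windows had, and no member held TGACGTCA, which 1.79% had. The 8 windows carried between 13 and 47 CpG dinucleotides, against a median of 7 over all windows.

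The 9 genes lie on 8 chromosomes of GRCm38 in GENCODE M21. Mtor is at chr4:148448611-148557683, Rptor at chr11:119602905-119899576, Rictor at chr15:6708379-6800401, Tsc1 at chr2:28641228-28691167 and Eif4ebp1 at chr8:27260329-27276674, all on the plus strand. Tsc2 is at chr17:24595816-24632630, Rheb at chr5:24802823-24842624, Rps6kb1 at chr11:86498871-86544805 and Eif4ebp2 at chr10:61428491-61452661, all on the minus strand. Exons of 3 members overlap an exon of a gene on the other strand. Tsc2 shares 693 exonic bases (7.20% of its exons) with Pkd1, Rps6kb1 shares 155 (1.79%) with Rnft1, and Rptor shares 84 (0.62%) with the antisense transcript Rptoros. The libraries were stranded, but whether counting used the strand is not stated, so how reads in these bases were assigned is not known. Counting lengths differ from these exons (for Rps6kb1, 10188 against 8658 bases), so the overlaps may differ in the gene models that were counted.

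The transcripts fell into an abundant and a moderate tier. Eif4ebp1, a small repressor of cap-dependent translation, had the highest mean over the 18 libraries (65.2 FPKM), above Rheb (60.0 FPKM) in 15 of the 18 libraries. Their means were at percentiles 93.5 and 92.8 of the 14607 genes compared across all libraries. Eif4ebp2, a relative of Eif4ebp1, followed at 16.5 FPKM and was below Rheb in 18 of 18 libraries. Tsc2 stood at 14.6 FPKM and was below Eif4ebp2 in only 10 of 18 libraries, so these neighbours did not differ beyond their spread.

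The kinase and its scaffolds were expressed near the middle of these genes, at percentiles 51.0 (Mtor), 51.3 (Rictor) and 43.2 (Rptor). Rictor (8.29 FPKM) and Mtor (8.21 FPKM) were in this order in 9 of 18 libraries, Mtor and Tsc1 (7.99 FPKM) in 12, Tsc1 and Rps6kb1 (7.07 FPKM) in 11, and Rps6kb1 and Rptor (6.19 FPKM) in 14. These 5 genes could therefore not be ranked firmly, whereas Rictor was below Tsc2 in 18 of 18 libraries. Over the libraries, Mtor spanned 6.31 to 10.7 FPKM, a range of 1.69-fold, and the widest range was that of Eif4ebp2, at 3.89-fold.

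**Figure D1:**
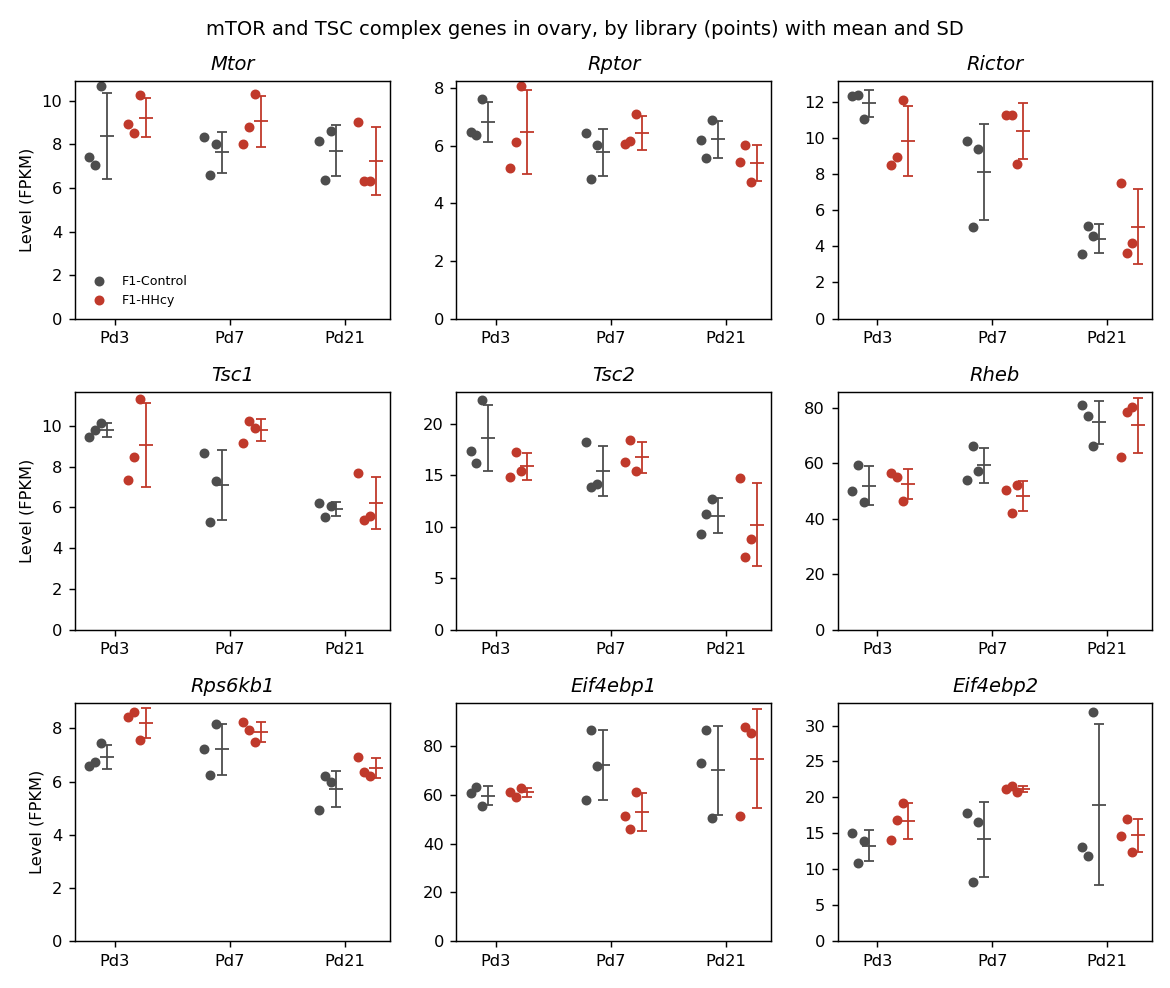
Level of each member (FPKM, linear axis from 0) by day, with 1 point per library and a bar for the mean and SD of the 3 libraries of a group, F1-Control in grey and F1-HHcy in red. Diet groups overlapped in most panels, and Rictor, Tsc1, Tsc2 and Rps6kb1 had their lowest means at Pd21. In F1-Control at Pd7, 1 library had the lowest Eif4ebp2 (8.19 FPKM) and the lowest Tsc1 (5.27 FPKM).

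The diets were compared first over all 9 genes. None of them rose or fell at Pd3, Pd7 or Pd21. By limma, 0 of 9 members had an adjusted p under 0.05 on each day, against 3.07% of all 13277 genes tested at Pd3, 11.9% of 13299 at Pd7 and 2.23% of 13350 at Pd21. An unadjusted p under 0.05 was found for 0, 3 and 0 members, against 22.4%, 31.5% and 6.85% of all genes, and the lowest adjusted p was 0.284, 0.122 and 1.00. limma-voom on recovered fragments also called 0 members on each day, with 1, 2 and 0 under an unadjusted p of 0.05. Of the members, 0, 1 and 0 passed the study's criterion (a log2 fold change beyond 0.58 in either direction with an unadjusted p under 0.05), against 9.74%, 16.4% and 5.14% of all genes. Only the cut-off is the study's, applied here to the limma values. The study's volcano plots report more genes on each day, so these shares are not its own calls. The median log2 fold change of the members was 0.025, 0.14 and -0.024, and that of all genes tested was -0.031, -0.0015 and -0.011. The diet groups did not overlap for 1, 3 and 1 members, against 27.9%, 39.0% and 10.5% of all genes. The smallest p of an exact permutation test on 3 against 3 libraries is 0.1.

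**Figure D2:**
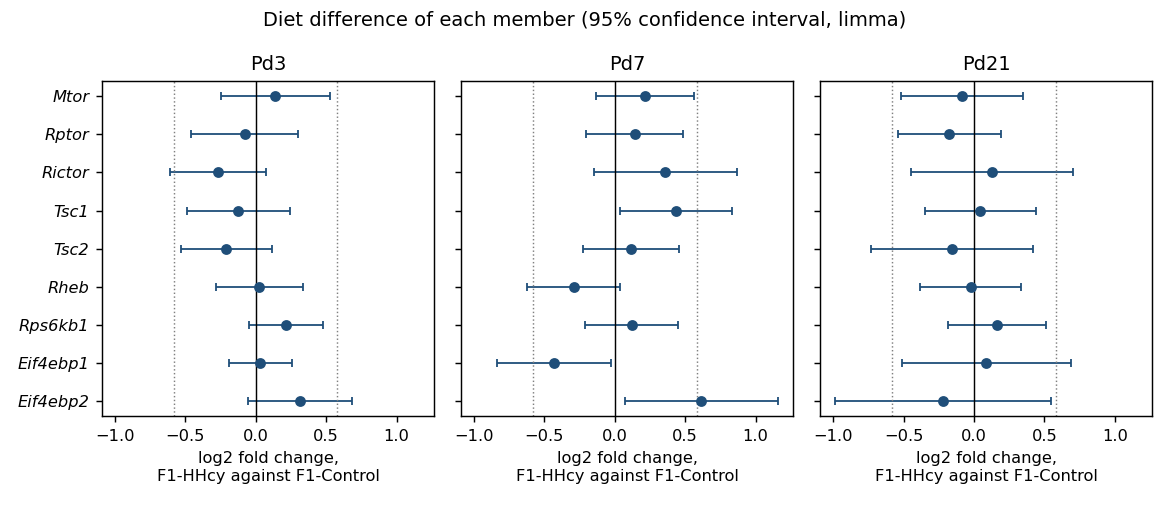
log2 fold change of F1-HHcy against F1-Control (x axis) for each member at Pd3, Pd7 and Pd21, with 95% confidence intervals from limma; dotted lines mark 0.58 in either direction. No interval at Pd3 or Pd21 lies wholly on 1 side of 0, while at Pd7 those of Tsc1, Eif4ebp1 and Eif4ebp2 do, before adjustment.

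Mtor, the kinase itself, had 7.45, 7.07 and 10.7 FPKM in the F1-Control libraries at Pd3 and 8.94, 8.51 and 10.3 in F1-HHcy. At Pd7 it had 8.36, 6.58 and 8.00 FPKM in F1-Control and 8.04, 8.81 and 10.3 in F1-HHcy. At Pd21 the values were 8.16, 6.37 and 8.61 FPKM in F1-Control and 9.05, 6.31 and 6.34 in F1-HHcy. The diet groups overlapped on each day. Its log2 fold change was 0.14 at Pd3 (95% confidence interval -0.25 to 0.53), 0.22 at Pd7 (-0.13 to 0.56) and -0.09 at Pd21 (-0.52 to 0.34). The intervals thus reach from a modest decrease to an increase of at most 0.56, which leaves out a doubling of the transcript on any day before adjustment for the number of genes.

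Rptor, the scaffold that brings substrates to mTORC1, stayed between 4.74 and 8.08 FPKM in all libraries. Its groups overlapped on each day, and its log2 fold changes were -0.08, 0.14 and -0.17 at Pd3, Pd7 and Pd21. Rictor, the scaffold of mTORC2, varied more. At Pd3 it had 12.3, 12.4 and 11.1 FPKM in F1-Control and 8.48, 8.92 and 12.1 in F1-HHcy (log2 fold change -0.27, SE 0.15, adjusted p = 0.321). F1-HHcy replicate 3 lay with the controls. Without that library Rictor fell by 0.41 on the log2 scale (adjusted p = 0.0362), the only member to pass in any fit of the diets without 1 library. That same fit called 2824 of all 13049 genes tested, whereas the other fits without 1 library of Pd3 called between 0 and 84. At Pd7 its mean went the other way, from 8.11 ± 2.63 FPKM in F1-Control to 10.4 ± 1.56 in F1-HHcy (log2 fold change 0.36, SE 0.23, adjusted p = 0.303).

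Within a library, the ratio of Rictor to Rptor describes the balance of the scaffold transcripts, a measure chosen after the values were seen. It was between 1.45 and 1.95 in the 6 libraries at Pd3 and between 1.05 and 1.87 at Pd7, so Rictor was the higher of the pair in all 12. At Pd21 it was 0.572, 0.926 and 0.665 in F1-Control and 1.37, 0.604 and 0.880 in F1-HHcy. Rictor was then the lower of the pair in 5 of 6 libraries, a difference in level that cannot be told apart from the batch. The exact permutation p (2-sided) of the diet difference in this ratio was 0.4, 0.5 and 0.5.

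Tsc1, which encodes hamartin and stabilises tuberin, differed between the diets at Pd7 before adjustment. It had 8.69, 5.27 and 7.32 FPKM in the F1-Control libraries and 9.19, 10.3 and 9.90 in F1-HHcy. Every F1-HHcy library was thus above every F1-Control library, on a day on which the diet groups did not overlap for 39.0% of all genes. The group means were 7.09 ± 1.73 and 9.78 ± 0.547 FPKM, and the log2 fold change was 0.44 (SE 0.18, 95% confidence interval 0.04 to 0.83), with an adjusted p of 0.130 by limma. At Pd3 the log2 fold change was -0.12 and at Pd21 it was 0.04, with overlapping groups. Tsc2, which encodes tuberin, the part of the complex that acts on Rheb, had overlapping groups on each day, with 15.4 ± 2.43 and 16.7 ± 1.55 FPKM at Pd7 and log2 fold changes of -0.21, 0.12 and -0.15.

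Rheb, the GTPase held in check by that complex, lay in the other direction at Pd7. It had 54.1, 66.3 and 57.1 FPKM in F1-Control and 50.4, 42.2 and 52.0 in F1-HHcy, with every F1-HHcy library below every F1-Control library. The log2 fold change was -0.29 (SE 0.15, 95% confidence interval -0.62 to 0.04), and the adjusted p was 0.205. Its level did not separate the diets at Pd3 (51.8 ± 6.99 and 52.6 ± 5.45 FPKM) or Pd21 (74.7 ± 7.71 and 73.6 ± 9.85 FPKM).

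Rps6kb1, which encodes the kinase that phosphorylates ribosomal protein S6, was above the controls in all F1-HHcy libraries at Pd3 and at Pd21. At Pd3 it had 6.60, 6.73 and 7.45 FPKM in F1-Control and 8.42, 8.60 and 7.55 in F1-HHcy, a log2 fold change of 0.21 (95% confidence interval -0.05 to 0.48, adjusted p = 0.307). At Pd21 it had 4.94, 6.20 and 5.99 FPKM in F1-Control and 6.94, 6.37 and 6.20 in F1-HHcy, a log2 fold change of 0.16 (-0.18 to 0.51, adjusted p = 1.00). The gap between the nearest libraries was small on both days. At Pd7 the groups overlapped, with a log2 fold change of 0.12.

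The translation repressors Eif4ebp1 and Eif4ebp2 went opposite ways at Pd7. Eif4ebp1 had 57.9, 86.6 and 71.9 FPKM in F1-Control and 51.3, 45.9 and 61.4 in F1-HHcy, so that the groups overlapped by 1 library of each diet. Its log2 fold change was -0.43 (SE 0.18, 95% confidence interval -0.84 to -0.03, adjusted p = 0.137). Eif4ebp2 had 17.8, 8.19 and 16.6 FPKM in F1-Control and 21.2, 21.6 and 20.7 in F1-HHcy. The treated libraries lay within about 1 FPKM of each other and above all controls, while the controls were spread by the low value of replicate 2. The log2 fold change of Eif4ebp2 was 0.61 (SE 0.24, 95% confidence interval 0.07 to 1.16, adjusted p = 0.122), the only one of the members past the study's criterion.

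On the other days the pair differed less clearly. Eif4ebp1 was at 59.8 ± 3.97 and 61.1 ± 1.87 FPKM at Pd3, the narrowest interval of the 9 genes that day (-0.19 to 0.26 on the log2 scale). Eif4ebp2 had 15.0, 10.9 and 13.9 FPKM in F1-Control and 14.1, 16.9 and 19.2 in F1-HHcy at Pd3 (log2 fold change 0.31, adjusted p = 0.284). At Pd21, F1-Control replicate 3 held 31.9 FPKM of Eif4ebp2 against 13.1 and 11.9 in the other controls, and F1-HHcy held 14.7, 16.95 and 12.4. The Pd21 log2 fold change of -0.22 turned to 0.21 without that library.

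The ratio of Eif4ebp1 to Eif4ebp2 within a library, also chosen after the values were seen, was 3.26, 10.6 and 4.34 in F1-Control at Pd7 and 2.42, 2.12 and 2.97 in F1-HHcy. All F1-HHcy libraries lay below all F1-Control libraries, and the exact permutation p (2-sided) of 0.1 is the smallest that this design can give. The ratio overlapped between the diets at Pd3 (4.00 to 5.80 and 3.29 to 4.32) and at Pd21 (1.59 to 7.31 and 3.51 to 6.85), with exact permutation p-values of 0.3 and 0.9.

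One library stood apart at Pd7. F1-Control replicate 2 at Pd7 had the lowest value of its day for 7 members and the highest for the other two, Rheb and Eif4ebp1. In that library, genes counted over less than 1500 bases were high and genes over more than 6000 bases were low relative to the day's mean, the short minus long difference of the medians being 0.754 (log2). That difference was -0.067 and -0.010 in F1-Control replicates 1 and 3 of Pd7, and -0.201, -0.191 and -0.266 in F1-HHcy. Every F1-HHcy library thus lay below every F1-Control library, also with replicate 2 left out. The median log2 fold change at Pd7 was -0.26 over the 1998 short genes and 0.18 over the 3053 long genes. The lengths behind the FPKM were 981 bases for Eif4ebp1, 1521 for Rheb and 1786 for Eif4ebp2, and between 6437 and 10188 for the other 6 members. Without that library the Pd7 log2 fold changes were 0.26 for Tsc1, 0.09 for Rictor, 0.13 for Mtor, -0.21 for Rheb, -0.29 for Eif4ebp1 and 0.29 for Eif4ebp2, each in the same direction as before, and 0 members passed the study's criterion. With the trend on gene length removed from every library, an alternative chosen after the values were seen, they were 0.26 for Tsc1, 0.17 for Rictor, 0.04 for Mtor, -0.10 for Rheb, -0.17 for Eif4ebp1 and 0.77 for Eif4ebp2. Of the members, 1 (Eif4ebp2) then still passed the study's criterion, and 0 had an adjusted p under 0.05.

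**Figure D3:**
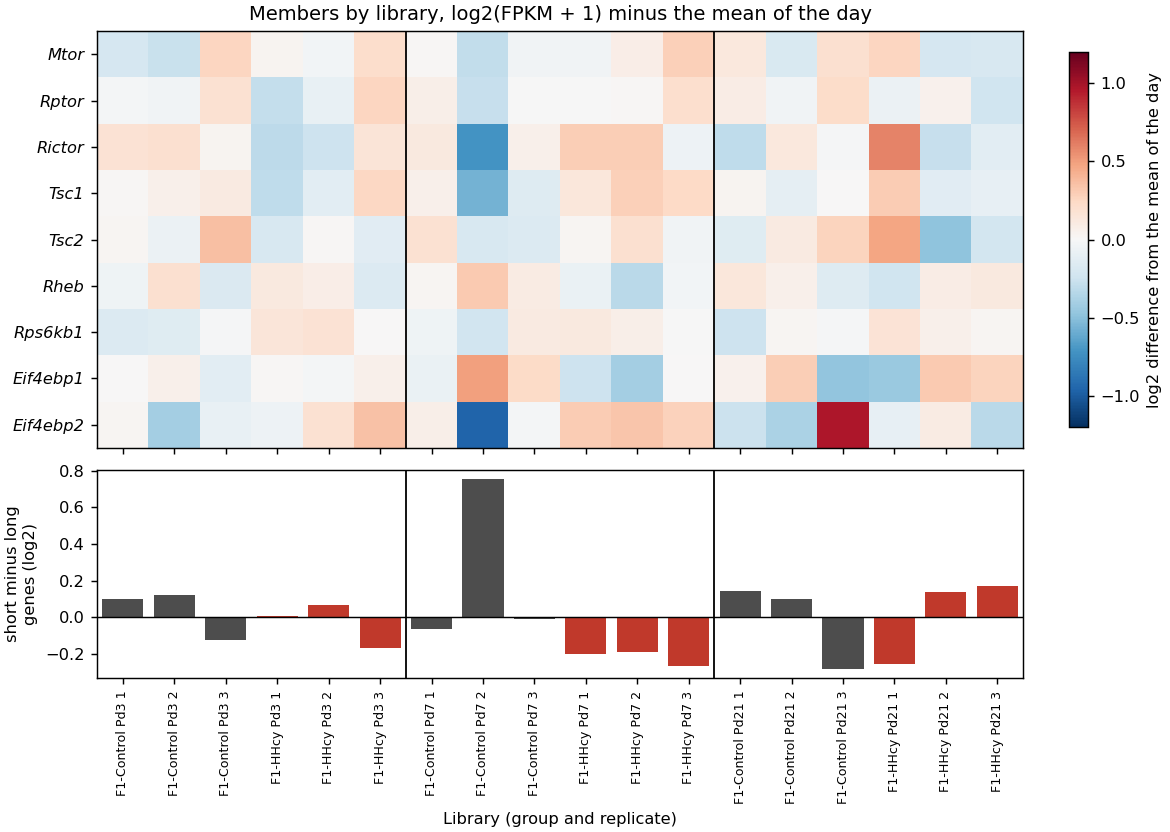
Top, log2(FPKM + 1) of each member minus its mean over the 6 libraries of the day (colour, red above and blue below the mean), by library. Bottom, median of genes counted over less than 1500 bases minus median of genes over more than 6000 bases (log2, same centring), F1-Control in grey and F1-HHcy in red; F1-Control Pd7 replicate 2 stands apart at 0.754, and the long members are blue and Rheb and Eif4ebp1 red in the same column.

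Across the 18 libraries, with each value centred on the mean of its day, Pearson's r lay between -0.799 and 0.813 over the 36 pairs of members. It was 0.81 for Rictor with Tsc1 and 0.813 for Rheb with Eif4ebp1. It was -0.799 for Tsc1 with Rheb, -0.757 for Tsc2 with Eif4ebp1 and -0.692 for Eif4ebp1 with Eif4ebp2. Rps6kb1 was less tied to the rest, with r between -0.391 and 0.417 over its 8 pairs. These are descriptions over 18 libraries that share depth, scaling and the length difference above. The genes most like Mtor by the same measure, among 14606 others, were Tarbp1 (r = 0.921), Heatr5b (0.899), Ehmt1 (0.896), Ankhd1 (0.895) and Slc4a2 (0.891), and no other member was among these 5.

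Age was compared between Pd3 and Pd7, which share a batch. None of the 9 members rose or fell in either diet group by limma, against 11.4% of 14607 genes in F1-Control and 5.48% in F1-HHcy, and 2 and 0 members had an unadjusted p under 0.05 (28.6% and 23.3% of all genes). In F1-Control, Rictor was at 11.9 ± 0.747 FPKM at Pd3 and 8.11 ± 2.63 at Pd7 (log2 fold change -0.55, SE 0.24, adjusted p = 0.139). Tsc1 was at 9.81 ± 0.334 and 7.09 ± 1.73 FPKM (-0.44, SE 0.17, adjusted p = 0.101). Every Pd7 control was below every Pd3 control for both genes, 2 of 9 members without overlap against 38.2% of all genes. Without F1-Control Pd7 replicate 1, Tsc1 fell by 0.58 on the log2 scale (adjusted p = 0.0432). That fit also called the most pathway genes, 12 against 9 with all libraries, and its share of all genes is not given here. Without F1-Control Pd7 replicate 2, the values were -0.27 for Tsc1 (adjusted p = 0.357) and -0.28 for Rictor (adjusted p = 0.492). In F1-HHcy, Eif4ebp2 was at 16.7 ± 2.53 and 21.2 ± 0.456 FPKM (0.33, SE 0.30, adjusted p = 0.544), with every Pd7 library above every Pd3 library, the only member without overlap in that comparison, against 30.7% of all genes.

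The diet difference was not shown to change with age for any member. By limma, 0 of 9 members had an adjusted p under 0.05 for the difference between Pd3 and Pd7 (0.411% of all genes did), between Pd7 and Pd21 (3.89%) or between Pd3 and Pd21 (4.59%), and 1, 0 and 0 had an unadjusted p under 0.05 (13.8%, 19.4% and 16.1% of all genes). The value for Tsc1 between Pd3 and Pd7 was 0.56 (SE 0.24, adjusted p = 0.329), and that for Rictor was 0.63 (SE 0.33, adjusted p = 0.403), or 0.36 without F1-Control Pd7 replicate 2. For Eif4ebp2 between Pd7 and Pd21 it was -0.83 (SE 0.42, adjusted p = 0.288), with an interval of -1.72 to 0.06. It was -0.40 without F1-Control Pd21 replicate 3 and -0.51 without F1-Control Pd7 replicate 2. These intervals are wide, so differences of moderate size were not detectable with 3 libraries per group.

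At Pd21 the mean levels of Rictor, Tsc1, Tsc2 and Rps6kb1 stood below those of both earlier days in each diet group, which was not tested. Rps6kb1 was at 5.71 ± 0.67 FPKM in F1-Control and 6.50 ± 0.38 in F1-HHcy. Rictor was at 4.42 ± 0.810 FPKM in F1-Control and 5.09 ± 2.09 in F1-HHcy, Tsc1 at 5.94 ± 0.345 and 6.23 ± 1.28, and Tsc2 at 11.05 ± 1.70 and 10.2 ± 4.03. Rheb stood higher, at 74.7 and 73.6 FPKM. Mtor, at 7.71 ± 1.18 and 7.24 ± 1.57 FPKM, and Rptor, at 6.21 ± 0.656 and 5.40 ± 0.638 FPKM, lay closer to their earlier means, and in F1-Control both were above their Pd7 means. Age and batch cannot be told apart in these values.

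The other genes of the pathway were read from 5 lists with 93 genes, of which 92, 91 and 91 were tested at Pd3, Pd7 and Pd21. By limma 0 of them rose or fell at Pd3 and at Pd21, with 7 higher and 14 lower at Pd3 and 0 at Pd21 under an unadjusted p of 0.05, against 9.78% higher and 12.6% lower of all genes at Pd3. limma-voom also called 0 of them on these days. At Pd7, 7 rose and 4 fell, of 91 tested, while 5.88% of all genes rose and 5.98% fell that day. Their median log2 fold change was -0.054, 0.056 and -0.0055 on the 3 days. Without F1-HHcy Pd3 replicate 3, 21 pathway genes passed at Pd3, as did 2824 of all 13049 genes tested. Without any 1 library of Pd7, between 3 (F1-HHcy replicate 2) and 12 (F1-Control replicate 3) pathway genes passed at Pd7. Over all genes, the same fits called 581 of 13061 and 1845 of 13096.

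**Figure D4:**
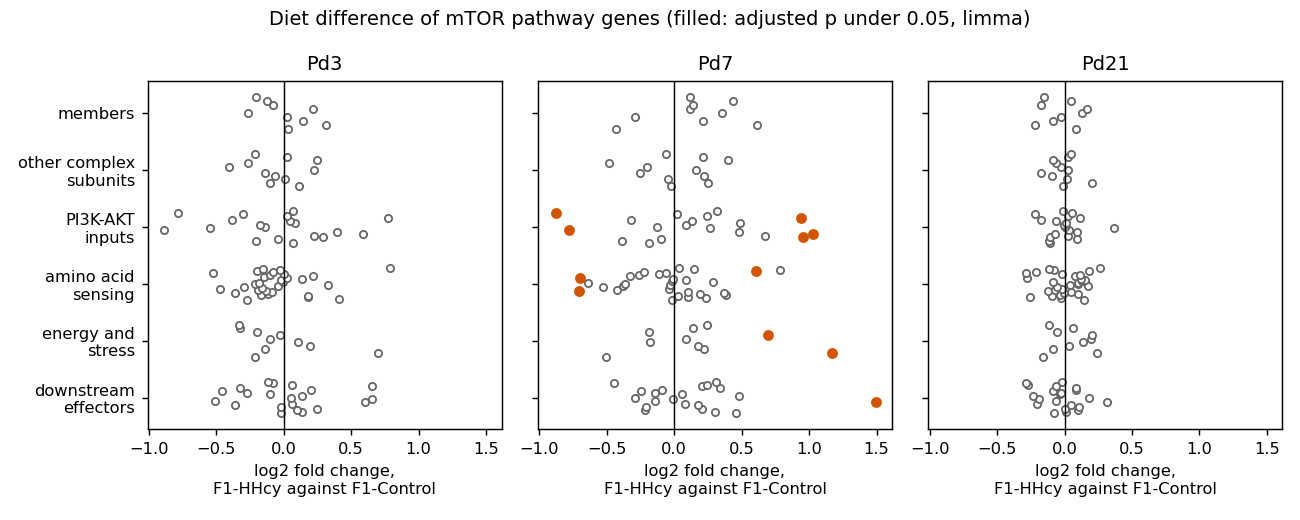
log2 fold change of F1-HHcy against F1-Control (x axis) for the 9 members and the tested genes of 5 pathway lists at Pd3, Pd7 and Pd21, 1 point per gene, filled where the adjusted p from limma was under 0.05. Filled points occur only at Pd7, in the lists of inputs, sensing, energy and downstream genes, and none is a member or another complex subunit.

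Other subunits and assembly factors of the complexes did not pass the test on any day. Of 11 tested genes 0 rose and 0 fell by limma, and 1 higher and 1 lower gene at Pd7 had an unadjusted p under 0.05, with 0 at Pd3 and Pd21. The most abundant was Akt1s1, which encodes an inhibitory subunit of mTORC1, at 15.4 ± 1.359 FPKM in F1-Control and 15.2 ± 1.81 in F1-HHcy at Pd7 (log2 fold change -0.02).

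Among 19 tested inputs of the PI3K-AKT branch, 3 rose and 2 fell at Pd7. Irs1, the adaptor of the insulin and IGF receptors, had 7.28, 5.87 and 8.51 FPKM in F1-Control and 15.6, 14.8 and 16.6 in F1-HHcy, and rose by 1.03 on the log2 scale (SE 0.16, adjusted p = 0.00582). The groups were far apart, and Irs1 passed in each fit without 1 library of Pd7. Pik3cd, a catalytic subunit of PI3K, rose from 7.58 ± 1.90 to 15.5 ± 3.50 FPKM (log2 fold change 0.94, adjusted p = 0.0201). Pik3r3, a regulatory subunit, fell from 11.8 ± 2.13 to 5.94 ± 0.727 FPKM (-0.87, adjusted p = 0.0120). Named after its values were seen, Kit, the receptor of oocytes for Kit ligand, fell from 31.7 ± 8.97 to 17.9 ± 4.51 FPKM (-0.78, adjusted p = 0.0477), and Igf1r rose by 0.95 (adjusted p = 0.0398), or by 0.61 without F1-Control Pd7 replicate 2. Akt1, the most abundant gene of the list, was at 59.5 ± 2.05 and 52.4 ± 5.88 FPKM (adjusted p = 0.380).

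At the lysosome, where amino acids are sensed, 1 gene rose and 2 fell of 30 tested at Pd7. Rragd, a Rag GTPase that recruits mTORC1, fell from 8.13 ± 1.69 to 4.58 ± 0.486 FPKM (-0.70, adjusted p = 0.0303). Chosen after their values were seen, Lamtor1, the anchor of the Rag GTPases, fell by 0.70 on the log2 scale (adjusted p = 0.0385), and Slc38a9, a lysosomal arginine sensor, rose by 0.61 (adjusted p = 0.0354). Sec13, the most abundant gene of this list, stood at 108 ± 15.5 and 85.3 ± 5.22 FPKM (adjusted p = 0.178).

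Of 10 energy and stress inputs, 2 rose at Pd7. Ddit4l, an inhibitor of mTORC1 signalling, had 14.4, 18.3 and 25.6 FPKM in F1-Control and 38.5, 41.3 and 53.3 in F1-HHcy (log2 fold change 1.17, SE 0.21, adjusted p = 0.00939). The other was Prkab2, a subunit of the energy sensor AMPK, with a log2 fold change of 0.70 (adjusted p = 0.0333), named after its values were seen. The relative Ddit4, the most abundant of the list, was at 57.2 ± 7.23 FPKM in F1-Control and 39.8 ± 3.86 in F1-HHcy (-0.51, adjusted p = 0.0530), with every F1-HHcy library lower, whereas Ddit4l was higher in every F1-HHcy library.

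Of 21 downstream effectors, 1 rose at Pd7. Foxo1, a transcription factor that AKT keeps out of the nucleus and that granulosa cells express, had 9.28, 8.05 and 16.96 FPKM in F1-Control and 24.0, 25.4 and 55.9 in F1-HHcy (log2 fold change 1.495, SE 0.34, adjusted p = 0.0219). Rps6, the ribosomal protein that is the classic end point of the pathway, was the most abundant at 1041 ± 232 and 967 ± 127 FPKM, with a log2 fold change of -0.09 (95% confidence interval -0.63 to 0.45).

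The 11 calls at Pd7 differed in how far they held when the fit was changed. Irs1 and Ddit4l passed in all 6 fits without 1 library of that day. Pik3r3 did not pass without F1-HHcy replicate 1 or 2, and Foxo1 did not without F1-HHcy replicate 3 or F1-Control replicate 1 or 2. Pik3cd was lost without F1-HHcy replicate 2 or 3 or F1-Control replicate 1 or 2, and Rragd without any F1-HHcy library or F1-Control replicate 1. Igf1r and Prkab2 were lost without any F1-HHcy library, and Prkab2 also in the model of 18 libraries (adjusted p = 0.0851). Lamtor1 did not pass with median-ratio scaling (adjusted p = 0.0578), with limma-voom (adjusted p = 0.0546), or without any F1-HHcy library or F1-Control replicate 2. Slc38a9 did not pass in the model of 18 libraries (adjusted p = 0.0730), with the length trend removed (adjusted p = 0.0576), or without any 1 library other than F1-Control replicate 1. Kit did not pass with a pseudocount of 0.1 (adjusted p = 0.0528), in the model of 18 libraries (adjusted p = 0.0943), or without replicate 1 or 2 of either diet. Without a filter on low values none of the 11 passed, with adjusted p between 0.0528 (Irs1) and 0.152 (Kit).

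At Pd3 no pathway gene passed the adjusted test. Of 92 tested, 7 passed the study's criterion, 5 higher and 2 lower, against 9.74% of all genes that day. Wdr59, a part of the GATOR complex, was at 8.13 ± 2.31 FPKM in F1-Control and 14.5 ± 1.82 in F1-HHcy (log2 fold change 0.79, adjusted p = 0.0668). Pik3cd (0.77, adjusted p = 0.0638) and Pik3r3 (-0.78, adjusted p = 0.104) had the signs that they had at Pd7. Kit was at 69.1 ± 5.02 and 40.9 ± 22.8 FPKM (-0.89, adjusted p = 0.198), and its F1-HHcy libraries held 20.5, 36.5 and 65.5 FPKM. Without the last of these, replicate 3, it fell by 1.30 on the log2 scale (adjusted p = 0.00580), in a fit that called 2824 of all 13049 genes. Grb10, an adaptor phosphorylated by mTORC1 (0.65, adjusted p = 0.112), and Sgk1, a kinase downstream of mTORC2 (0.65, adjusted p = 0.134), ranked by p after Pik3r3 and before Kit.

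Between Pd3 and Pd7, 0 pathway genes rose and 9 fell in F1-Control, and 2 rose and 1 fell in F1-HHcy, of 92 tested. Of all genes, 5.27% rose and 6.08% fell in F1-Control, and 2.29% rose and 3.18% fell in F1-HHcy. Leaving out 1 library moved these counts to between 1 and 12 for F1-Control (12 without Pd7 replicate 1 and 1 without any of the other 5) and between 0 and 12 for F1-HHcy (12 without Pd3 replicate 1 and 0 without any of the other 5). The fit without F1-HHcy Pd3 replicate 1 called 1917 of all 14595 genes tested, so the count of 12 of 92 moved with that of all genes. For the F1-Control fits without 1 library, the counts of all genes are not given here.

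Markers of other ovarian cell types moved with the diet in the same libraries, and fewer cells of a type cannot be told apart from less RNA per cell in whole ovary. At Pd7, 5 of 6 germ cell markers fell, with summed levels of 160 to 299 FPKM in F1-Control and 65.4 to 91.5 in F1-HHcy. All 5 theca and steroidogenic markers rose (216 to 449 against 1140 to 1190 FPKM), 2 of 6 granulosa markers rose (177 to 451 against 455 to 815), and 5 of 5 tested erythroid markers fell (925 to 5760 against 287 to 502). Of the growing oocyte markers, 1 rose and 2 fell of 7 (1700 to 2790 against 1000 to 1550). Of the 3 tested oviduct and multiciliated markers 1 fell. By limma 0 endothelial, macrophage or stromal markers passed that day, with 1, 2 and 1 under an unadjusted p of 0.05. Their part in the Pd7 values of Irs1, Foxo1, Kit and the members was not tested.

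At Pd3, 6 of 6 erythroid markers fell (3910 to 11200 against 780 to 1110 FPKM), and 2 growing oocyte markers, 2 granulosa markers and 1 stromal marker rose. Of the endothelial, macrophage, theca and oviduct markers 0 passed by limma at Pd3, with 3, 3, 0 and 0 under an unadjusted p of 0.05. Only 2 of the 5 theca markers and 4 of the 5 oviduct markers were tested that day. All 5 theca markers summed to 98.3 to 152 FPKM in F1-Control and 71.3 to 679 in F1-HHcy. Germ cell markers summed to 335 to 360 FPKM in F1-Control and 116 to 324 in F1-HHcy, with 0 of 6 passing the adjusted test and 4 lower at an unadjusted p under 0.05. At Pd21, 5 of 5 markers of oviduct and multiciliated epithelium fell (67.6 to 435 against 2.35 to 4.23 FPKM), and 0 of the other markers passed, with 1 stromal marker under an unadjusted p of 0.05. Their part in the member values of these days was not tested.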

How the data were processed

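Ovarian RNA of 18 libraries (6 groups of 3) was measured by stranded poly-A sequencing. The submitters' processing notes name Trimmomatic 0.39, STAR 2.7.9a, featureCounts 2.0.1 and DESeq2 1.36.0 with GRCm38 (mm10), with no settings, so how the unit was made is not given in the sources used here. Values were deposited by the authors per gene symbol for each library, with no unit named. The deposited values were read as FPKM because 1 length per gene turned them into whole fragments (within 0.002) for 27293 of 27294 genes above 0 in at least 3 libraries. The recovered fragments, at least 99.9956% of each library, put the depth between 33630641 and 39399281 per library. Counting error was not set beside the spread between libraries.

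Diets were compared within each day with limma 3.58.1 (R 4.3.3) and a variance trend, on log2(FPKM + 1), keeping genes that reached 1 FPKM in 3 or more of the 6 libraries, with Benjamini-Hochberg adjustment over all genes tested. Ages and differences between days came from 1 model of all 18 libraries (14607 genes). The criterion credited to the study is the cut-off printed above its volcano plots, applied here to the p-values and log2 fold changes of these fits.

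The members and lists were chosen with earlier results of these data known. The rule for naming took all members, up to 6 pathway genes per day with the smallest p among those past a threshold, the most abundant gene of each list, and the 5 genes most like Mtor. Alternatives were a pseudocount of 0.1, no filter, a single model of the 18 libraries, blocking on the replicate number, median-ratio scaling, limma-voom on recovered fragments (with TMM scaling) and each library left out; removal of a trend on gene length was added after the values were seen. Promoter windows came from RefSeq on GRCm38.p6.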

Additional observations from a re-analysis of the deposited data

Results flagged for a closer look

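The diet difference of Irs1, the insulin and IGF receptor adaptor, was 1.03 (log2) at Pd7 and differed at Pd21 by -1.102 (log2, SE 0.29, adjusted p = 0.0423 by limma in the model of 18 libraries), a test of the difference itself. Among pathway genes, this test was read only for those already past a threshold in a diet comparison. The Pd7 values that selected Irs1 therefore also enter the test, which 3.89% of all genes passed. Pd7 and Pd21 were in different batches, so the day and the batch cannot be told apart. Without 1 library the difference lay between -1.22 and -0.93, and it no longer passed in 9 of 12 such fits (adjusted p up to 0.127) nor in 3 of 5 other alternatives (adjusted p up to 0.0811).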

How the results depend on the processing

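No alternative without a left-out library gave a member an adjusted p under 0.05. The count of members past the study's criterion at Pd7 went from 1 to 0 without a filter and in the model of all 18 libraries, and without 1 library it was 0 to 1. Without 1 library, 0 to 1 members passed the adjusted test at Pd3 and 0 to 1 in the F1-Control age comparison. Fits without 1 library reversed 5 of 54 member values at Pd3, 0 of 54 at Pd7 and 10 of 54 at Pd21. At Pd3 these ranged from -0.23 to 0.045 for Rptor, -0.058 to 0.13 for Rheb and -0.019 to 0.074 for Eif4ebp1. At Pd21 the ranges were -0.14 to 0.30 for Rictor, -0.096 to 0.12 for Tsc1, -0.43 to 0.052 for Tsc2, -0.11 to 0.090 for Rheb, -0.13 to 0.33 for Eif4ebp1 and -0.47 to 0.21 for Eif4ebp2. Rheb at Pd21 was 0.034 with median-ratio scaling, 0.0032 with limma-voom and 0.0041 with the length trend removed. With that trend removed, Pd7 values were -0.032 for Rptor, -0.018 for Tsc2 and -0.082 for Rps6kb1, which left 4 members higher and 5 lower. Called pathway genes at Pd3 went from 0 to 3 in the model of 18 libraries, to 1 with the length trend removed and to 0 to 21 without 1 library. At Pd7 they went from 11 to 0 without a filter and to 3 to 12 without 1 library. For age they went from 9 to 5 in F1-Control without a filter and with median-ratio scaling (1 to 12 without 1 library), and from 3 to 0 in F1-HHcy without a filter and with the replicate block (0 to 12 without 1 library). The cause was not tested. Over all genes, adjusted calls at Pd3, Pd7 and Pd21 were 0, 91 and 37 without a filter, with 27626 to 27825 genes tested, and 881, 1723 and 498 in the model of 18 libraries. Without 1 library they ran from 0 to 2824 at Pd3 and from 493 to 1845 at Pd7.

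Replicate numbers did not pair the libraries. Deviations of same-numbered libraries from their group means correlated at -0.338 to 0.087, and each library is known only by number. With the replicate block, 1, 1874 and 345 of all genes and 0 members were called, and Eif4ebp2 at Pd7 was 0.61 (adjusted p = 0.0799).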
